A study of Mus musculus with 5480 samples.

Results

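A set of 9 genes of hyaluronan metabolism was followed through the mesenchyme of the developing mouse lung, chosen by name as rows of a table of 18072 genes in 5480 single cells. They were the hyaluronan synthases Has1 and Has2, the precursor enzymes Gfpt1, Gfpt2 and Ugdh, the hyaluronidases Hyal1 and Hyal2, the surface receptor Cd44 and the secreted hyaluronan-binding protein Tnfaip6, also called TSG-6. All 9 of 9 were in the table. The cells came from the distal lung of 10 mice, 1 female and 1 male in each of 5 groups, and had been sorted and sequenced one by one in plates. One group was taken before birth, at embryonic day 18.5 (E18.5), and 3 after it, at P1, P7 and P21 (days after birth), all under the treatment labelled normal, here called normal air, and the fifth at P7 under the treatment labelled hyperoxia. The labels used here gave no strain, oxygen level or exposure time, and named 16 cell subtypes.

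Hyaluronan is a long, unbranched sugar chain of the extracellular matrix that holds water and gives soft tissue its volume. It is made at the plasma membrane by the hyaluronan synthases, each of which joins UDP-glucuronic acid, supplied by Ugdh, to UDP-N-acetylglucosamine, whose supply is set by the rate-limiting amidotransferases Gfpt1 and Gfpt2 of the hexosamine pathway. Chains are cut by hyaluronidases and bound by Cd44 and by Tnfaip6, which transfers heavy chains of inter-alpha-inhibitor onto hyaluronan and is known as an inflammation-induced protein. In the lung, hyaluronan is known for its abundance in the fetal interstitium and its loss as the air spaces mature.

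A value is a number of reads, not of molecules, because the labels name no molecular identifiers. The reads of a cell ranged from 39358 to 5177020 (median 774305). Levels are CPM, read counts scaled by the total of the library, of the summed cells of 1 mouse and 1 subtype with at least 10 cells, which gave 64 sums. Has1 was read in 453 of the 5480 cells, Has2 in 389, Gfpt2 in 824, Hyal1 in 797, Hyal2 in 1178, Tnfaip6 in 1382, Gfpt1 in 1798, Ugdh in 3383 and Cd44 in 3734. The labels are set here against 1 marker each, for P21 airway smooth muscle and P21 adventitial fibroblasts only. Hhip, a marker of airway smooth muscle that was also listed for myofibroblasts, stood at 5025 and 5532 CPM in the female and the male P21 airway smooth muscle and at 125 and 181 CPM in the P21 adventitial fibroblasts. Pi16, an adventitial marker, stood at 0 and 0 in the first and at 798 and 516 CPM in the second. Other adventitial markers were read in that airway smooth muscle, as given below. Nothing in the labels puts more than 1 animal behind a sex and group, so an SD with n = 2 is the spread between a female and a male mouse. An SD over more mice also holds the spread between the ages and treatments that the subtype spans.

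The sequences just upstream of 3 members are shown because these were the members that passed the test between P7 and P21 in adventitial fibroblasts or airway smooth muscle. They are from the RefSeq promoter table on GRCm38.p6, 5′ to 3′ on the gene's strand, cut so that they end before the first base that RefSeq or GENCODE M21 annotates as transcribed, and 8 of the 9 members had an entry in that table. Capitals mark matches to TGANTCA, the letters of an AP-1 site, or TGACGTCA, those of a cAMP response element, searched on both strands.
Has1 (chr17:17855206-17855438, minus strand): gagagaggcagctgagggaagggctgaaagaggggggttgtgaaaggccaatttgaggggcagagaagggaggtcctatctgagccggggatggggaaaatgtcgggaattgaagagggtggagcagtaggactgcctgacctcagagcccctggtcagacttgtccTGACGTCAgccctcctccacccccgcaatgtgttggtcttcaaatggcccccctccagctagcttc
Gfpt2 (chr11:49793905-49794154, plus strand): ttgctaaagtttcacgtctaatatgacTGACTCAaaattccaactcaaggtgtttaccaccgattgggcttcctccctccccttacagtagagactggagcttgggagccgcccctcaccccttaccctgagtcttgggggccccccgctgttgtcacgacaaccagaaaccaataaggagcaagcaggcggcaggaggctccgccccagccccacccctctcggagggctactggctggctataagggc
Tnfaip6 (chr2:52037863-52038008, plus strand): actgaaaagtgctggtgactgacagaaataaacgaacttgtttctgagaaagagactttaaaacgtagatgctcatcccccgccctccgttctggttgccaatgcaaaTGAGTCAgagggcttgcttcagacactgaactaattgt
The TGACGTCA of Has1 began 83 bases before the RefSeq start, the TGACTCA of Gfpt2 223 bases before it and the TGAGTCA of Tnfaip6 142 bases before it. TGANTCA was found in 2 of the 8 members' windows of 250 bases and in 6.75% of 32851 such windows, and TGACGTCA in 1 of 8 and in 1.55%. The GC box GGGCGG was found in 6 of 8 (32.7% of all windows), the kappaB motif in Gfpt2 and Hyal2 (17.6%) and TATAAA in 0 of 8 (12.4%). A match is a description of the letters and does not show that a factor binds. In GENCODE M21 the genes lie at chr17:17843323-17855205 on the minus strand (Has1), chr11:49794178-49838613 on the plus strand (Gfpt2) and chr2:52038009-52056686 on the plus strand (Tnfaip6).

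Of the synthases, Has1 was highest in airway smooth muscle and adventitial fibroblasts, both subtypes of P21. It stood at 510 CPM in the female and 724 CPM in the male in airway smooth muscle, a mean of 617 ± 151 CPM (SD, n = 2 mice), and at 336 and 268 CPM in adventitial fibroblasts, a mean of 302 ± 48.0 CPM (SD, n = 2). The third in order, the early adventitial fibroblast, had a mean of 36.4 ± 46.0 CPM (SD, n = 8 mice), with 0.709 CPM in the lowest mouse and 136 CPM in the highest. Neither of the leading subtypes overlapped the next in its range over mice, whereas 11 of the 14 neighbouring pairs in the order did. The subtypes were named by the authors from the same cells' expression, so levels between subtypes are a description and were not tested.

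Has2 was low in every subtype. Its mean over the 64 sums was 0.714 RPKM (CPM divided by exon length in kilobases, a level per length), against 9.61 RPKM for Has1 and 0.085 RPKM for Has3, the synthase outside the list of 9. The Has1 mean was raised by P21 airway smooth muscle (137 RPKM) and adventitial fibroblasts (66.9 RPKM). Has2 was slightly above Has1 in fibroblast precursors (1.56 against 1.41 RPKM), proliferating fibroblasts (0.573 against 0.549) and male hyperoxic fibroblasts (0.282 against 0.156). Has1 was the higher in all other subtypes with a read of either. Adventitial fibroblasts led the order with 9.04 CPM in the female and 41.2 CPM in the male, and 13 of 14 neighbouring pairs overlapped. No Has2 read was found in 185 vascular smooth muscle cells of 8 sums, which allows a share of cells with a read of up to 1.62%. The annotated Has2os on the other strand overlaps Has2, and the strand setting of the counting is not given in the sources used here, so reads of the pair cannot be told apart.

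Of the precursor enzymes, Gfpt2 had the same 3 leading subtypes as Has1, with the first pair exchanged. It stood at 447 and 346 CPM (female and male) in adventitial fibroblasts and at 137 and 153 CPM in airway smooth muscle, while the third in order, the early adventitial fibroblast, had a mean of 59.5 CPM over 8 mice. Its paralog Gfpt1 showed no such peak: its highest mean was 50.7 ± 12.6 CPM (SD, n = 8) in early adventitial fibroblasts, and it was low in airway smooth muscle at 6.53 ± 4.33 CPM (SD, n = 2). Ugdh, the enzyme that makes UDP-glucuronic acid, was at 566 ± 38.9 CPM (SD, n = 2) in adventitial fibroblasts. It stood at 479 ± 203 CPM (SD, n = 5) in proliferating fibroblasts and at 439 ± 20.5 CPM (SD, n = 2) in fibroblast precursors. Early alveolar fibroblasts followed at 412 ± 141 CPM (SD, n = 8), whereas the later alveolar fibroblasts stood at 96.6 CPM. The leading subtypes overlapped, with 538 to 593 CPM in adventitial and 242 to 781 CPM in proliferating fibroblasts.

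The binding members differed from each other. Tnfaip6 was at 388 ± 28.7 CPM (SD, n = 2) in adventitial fibroblasts and 266 ± 38.6 CPM (SD, n = 2) in airway smooth muscle, above the 91.7 CPM of proliferating fibroblasts, the third in order. Cd44 was instead highest in myofibroblasts, with a mean of 678 ± 427 CPM (SD, n = 6 mice) and a range of 285 to 1296 CPM, and in early airway smooth muscle at 675 ± 191 CPM (SD, n = 6), which did not differ beyond their spread. Both means pool P1 and P7 mice in normal air with P7 mice in hyperoxia. The hyperoxia mice were the highest for myofibroblasts, so this order mixes age and treatment. Of the hyaluronidases, Hyal2 led in myofibroblasts at 85.3 ± 34.7 CPM (SD, n = 6) and stood at 8.12 CPM in airway smooth muscle, and Hyal1 led in alveolar fibroblasts at 40.8 ± 4.85 CPM (SD, n = 2), with all 14 of its neighbouring pairs overlapping. Per length, the mean level over the 64 sums was 48.6 RPKM for Cd44, 30.7 for Tnfaip6, 29.3 for Ugdh, 15.8 for Hyal2, 6.24 for Gfpt2, 5.29 for Hyal1 and 3.59 for Gfpt1.

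**Figure D1:**
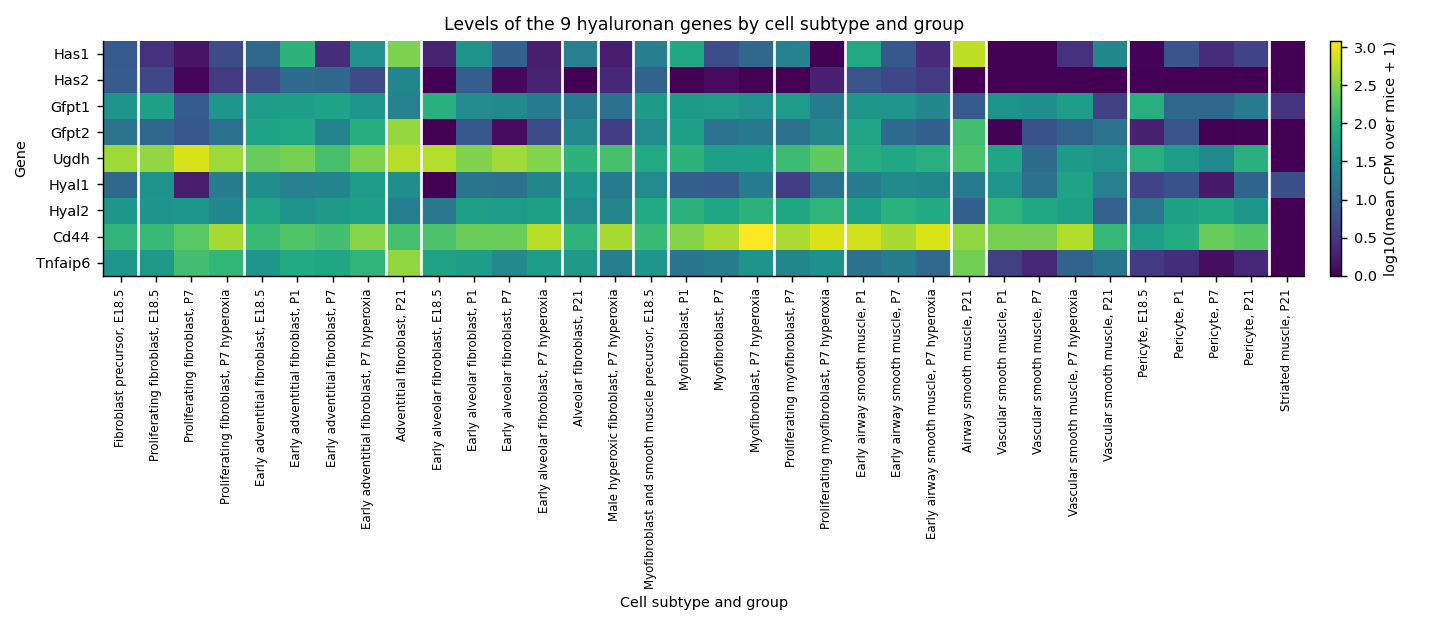
Levels of the 9 genes (rows) in each subtype and group with at least 10 cells (columns, 15 subtypes), coloured by log10(mean CPM over mice + 1), with white lines between subtypes. Has1, Gfpt2 and Tnfaip6 are brightest in the P21 columns of adventitial fibroblasts and airway smooth muscle, and Cd44 is bright in nearly every column, most of all in myofibroblasts in hyperoxia.

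The share of cells with a read also differed among the 9 genes, and for Has1 it is set here beside the level. In P21 adventitial fibroblasts Has1 was read in 33.3% of 153 female and 35.3% of 85 male cells, and the 3 cells with the most Has1 reads held 57.7% and 46.6% of them. In P21 airway smooth muscle it was read in 27.6% of 58 and 14.5% of 55 cells, and 3 cells held 66.8% and 97.5% of the reads. The high Has1 level of airway smooth muscle therefore rested on few cells, the male's almost wholly on 3. Taken as the mean of each cell's own CPM, which weights cells equally, Has1 was at 347 and 408 CPM there.

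Cells with Has1 and cells without it were compared within P21 adventitial fibroblasts after each cell was thinned to 100000 reads, so that detection was set by 1 depth. Gfpt2 was detected in 83.7% of the Has1 cells and 66.7% of the others in the female, and in 72.4% and 52.7% in the male. Tnfaip6 was detected in 75.5% and 58.8%, and in 72.4% and 43.6%, and Ugdh in 79.6% and 56.9%, and in 72.4% and 41.8%. These 3 were detected more often beside Has1 in both mice, whereas Cd44 was so in the female (71.4% and 50.0%) and not in the male (34.5% and 41.8%). In P21 airway smooth muscle Gfpt2 was detected in 28.6% of Has1 cells and 31.8% of the others in the female and in 12.5% and 23.9% in the male, and Ugdh in 14.3% and 29.5%, and in 25.0% and 30.4%. Tnfaip6 was detected more often beside Has1 there too, in 35.7% and 27.3% and in 37.5% and 23.9%. These shares of airway cells rest on 14 and 8 cells with Has1. With 1 mouse of each sex these shares carry no test.

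The genes whose levels ran most alike to Has1 over the 64 sums, among 10861 genes with a mean of at least 5 CPM, were Gfpt2 (Pearson r = 0.66), Egr2 (0.63), Gcc1 (0.61), Nr4a3 (0.61) and Igfbp3 (0.60), and Tnfaip6 was at rank 10 (0.56). Egr2 and Nr4a3 encode immediate-early transcription factors. For Gfpt2 they were Medag (0.75), Cygb (0.72), Tnfaip6 (0.69), Lum (0.69) and Gdf10 (0.68). Has2 ran with another set, namely Scara5 (0.72), Tspan11 (0.68), Smoc2 (0.68), Dnah1 (0.68) and AI464131 (0.67), with Has1 at 0.40. The sums share mice, runs and depth, so these values describe likeness and carry no p-value.

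Comparisons between ages and treatments were made on reads summed per mouse and class, where a class joins the early and the later subtype of adventitial fibroblasts, alveolar fibroblasts or airway smooth muscle, or is the myofibroblasts, vascular smooth muscle or pericytes. The joined classes change label with age: at P7 the adventitial class held 104 early and 2 later cells and at P21 9 and 238, the airway class 139 and 0 and then 6 and 113, and the alveolar class 365 and 0 and then 6 and 250. A comparison of P7 with P21 in them is therefore also one between the early and the later subtype, and age and subtype cannot be told apart. Levels below are CPM after TMM scaling, a correction for library composition, given for the female and the male mouse, and changes are log2 fold changes with their standard errors from edgeR's quasi-likelihood test, adjusted by Benjamini-Hochberg over all genes of a comparison with a threshold of 0.05. Of 171 member-by-comparison pairs, 163 could be tested and 5 passed, and 4 of the 5 were rises from P7 to P21.

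In adventitial fibroblasts Has1, Gfpt2 and Tnfaip6 rose between P7 and P21. Has1 stood at 355 and 329 CPM at P21 and at 0.690 and 2.50 CPM at P7, a log2 change of 7.71 ± 1.11 (SE, adjusted p = 0.0462, edgeR). Gfpt2 stood at 473 and 425 CPM against 34.6 and 12.5 CPM, a log2 change of 4.43 ± 0.54 (SE, adjusted p = 0.0312, edgeR). Tnfaip6 stood at 428 and 453 CPM against 74.7 and 56.1 CPM, a log2 change of 2.74 ± 0.42 (SE, adjusted p = 0.0469, edgeR). In each of the 3 both P21 mice lay far above both P7 mice. Across all genes 0.124% passed in this comparison, and 3 of the 9 members did. The members were chosen with earlier results of these data known, so these shares are a description and were not tested against each other.

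The other enzymes and receptors did not pass there. Ugdh stood at 571 and 728 CPM at P21 and at 161 and 167 CPM at P7, without overlap (log2 change 1.99 ± 0.36 SE, adjusted p = 0.0771, edgeR). Has2 overlapped, with 9.58 and 50.5 CPM at P21 and 0.976 and 19.2 CPM at P7. Gfpt1 was lower at P21 in both mice, with 30.5 and 19.7 CPM against 56.1 and 64.7 CPM (log2 change -1.30, adjusted p = 0.476, edgeR), opposite in sign to its paralog. The hyaluronidases overlapped, Hyal1 with 33.6 and 41.1 CPM at P21 against 36.9 and 9.27 CPM, and Hyal2 with 12.9 and 35.3 CPM against 65.3 and 21.8 CPM. Cd44 was level, with 160 and 199 CPM at P21 and 160 and 197 CPM at P7.

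The 4 male mice in normal air shared 1 sequencing run for nearly all their cells, so the male values above compare ages mostly within a run: 329 against 2.50 CPM for Has1, 425 against 12.5 CPM for Gfpt2 and 453 against 56.1 CPM for Tnfaip6. The female P7 and P21 mice were each in a run of their own. Each of the 3 calls rested on small numbers of mice. Without the male P21 mouse, the female P7 mouse or the male P7 mouse none of the 3 passed, and without the female P21 or the male hyperoxia mouse Gfpt2 alone did. Tnfaip6 also missed without either P1 mouse or without the female hyperoxia mouse. Of 20 alternative settings and left-out mice, Gfpt2 passed in 17, Has1 in 13, Tnfaip6 in 9 and Ugdh in 5, always in the same direction.

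Markers of mesothelium, the cell layer that covers the lung and a known source of hyaluronan, appeared in the early adventitial cells. Of 5 such markers (Msln, Upk3b, Wt1, Lrrn4 and Muc16), 17 cells held 4 or 5 at 10 CPM or more, all of them labelled early adventitial fibroblasts: 1 in the female P1 mouse, 1 in the female P7 mouse, 6 in the female hyperoxia mouse and 9 in the male hyperoxia mouse. Their summed level at P21 was near 0 in adventitial fibroblasts (0.832 and 0.213 CPM) and in airway smooth muscle (0.157 and 0.245 CPM). In the female P7 mouse 1 cell of this kind held 90.2% of the 41 Has1 reads. Leaving out the 17 cells, Has1 changed by 8.09 (adjusted p = 0.0865), Gfpt2 by 4.39 (adjusted p = 0.0385) and Tnfaip6 by 2.72 (adjusted p = 0.0504) on the log2 scale by edgeR, so that 1 of the 3 still passed, with fold changes within 1.5 times of those above.

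In airway smooth muscle Tnfaip6 rose between P7 and P21, from 26.2 and 9.94 CPM to 267 and 329 CPM, a log2 change of 4.06 ± 0.65 (SE, adjusted p = 0.0201, edgeR). Has1 and Gfpt2 lay above P7 in both mice and narrowly missed: Has1 stood at 570 and 813 CPM against 4.11 and 7.38 CPM (log2 change 6.95, adjusted p = 0.0575, edgeR), and Gfpt2 at 153 and 172 CPM against 12.6 and 7.71 CPM (log2 change 3.97, adjusted p = 0.0546, edgeR). Hyal2 lay below P7 in both, at 8.18 and 16.6 CPM against 85.8 and 88.0 CPM (log2 change -2.82, adjusted p = 0.0989, edgeR), and so did Gfpt1, at 11.0 and 3.90 CPM against 33.5 and 41.3 CPM. The other synthase, Has2, was also lower and did not pass, with 1 and 0 reads at P21 against 714 and 28 reads at P7 (log2 change -7.65, adjusted p = 0.425, edgeR). Across all genes 1.13% passed. Tnfaip6 passed in 14 of 17 alternatives and missed without the male P21 mouse and without the male P7 mouse.

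RNA of adventitial cells was looked for in this class through 5 markers. At P21 their summed level in airway smooth muscle was 1100 and 1557 CPM, against 274 and 219 CPM in the early airway smooth muscle of P7 and 15685 and 19845 CPM in P21 adventitial fibroblasts. Of the 5, Pi16 and Ly6a were at 0 in both P21 airway smooth muscle sums and Serpinf1 at 0.157 and 0.0445 CPM, so that the sum there was Dcn and Col14a1.

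Alveolar fibroblasts, which fill the walls of the air sacs, had another course. Ugdh was lower at P21, with 144 and 78.3 CPM against 508 and 365 CPM at P7 (log2 change -2.00 ± 0.41 SE, adjusted p = 0.275, edgeR), without overlap and opposite to the adventitial cells. Gfpt2 was higher at a low level, 27.5 and 38.3 CPM against 0.328 and 0.0994 CPM (adjusted p = 0.555, edgeR), and Cd44 was lower, 108 and 134 CPM against 238 and 233 CPM (adjusted p = 0.701, edgeR). No member passed in this comparison, in which 0.0702% of all genes did. The difference between the adventitial and the alveolar change was tested with an interaction term, blocking on the mouse. For Ugdh it was 4.03 ± 0.56 on the log2 scale (SE, adjusted p = 0.153, edgeR), and for Has1 6.59 (adjusted p = 0.537, edgeR). Neither passed, nor did any gene (0%; 687 at an unadjusted p under 0.05), although Ugdh passed without the female E18.5 mouse (adjusted p = 0.0257, edgeR) and without the male E18.5 mouse (adjusted p = 0.0237, edgeR), in a range of 0.0237 to 1 over its alternatives.

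In vascular smooth muscle and pericytes no member passed between P7 and P21, where 0.0886% and 0.0504% of all genes did. In vascular smooth muscle Has1 came from 1 mouse, with 0 CPM in the female and 62.9 CPM in the male, whose reads lay in 2 cells.

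**Figure D2:**
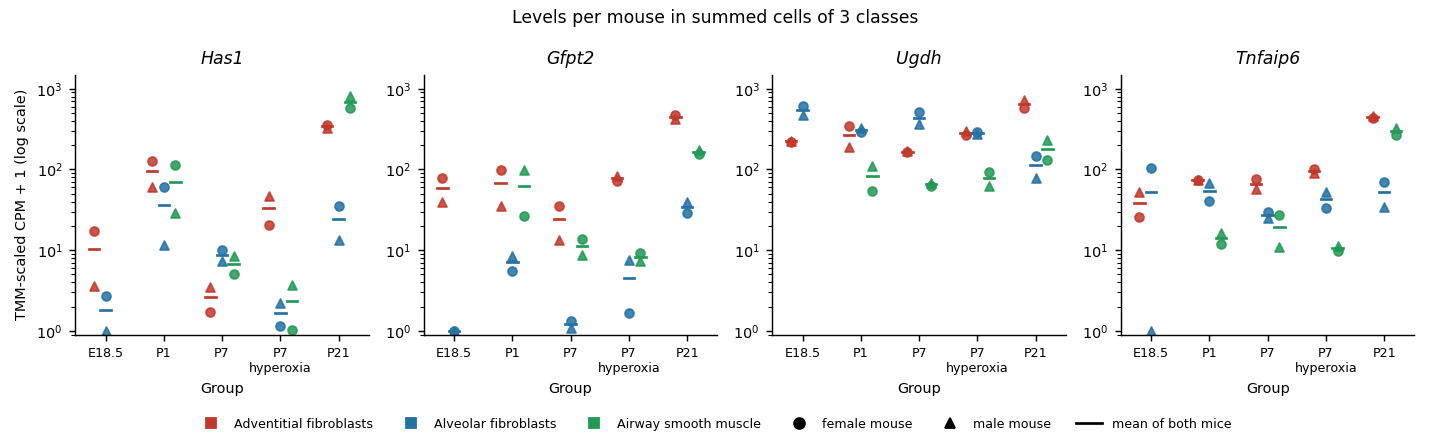
Levels of Has1, Gfpt2, Ugdh and Tnfaip6 in 3 classes by group, as TMM-scaled CPM + 1 on a log axis, with 1 point per mouse (circle female, triangle male) and a line at the mean of both. In adventitial fibroblasts both P21 mice lie above both P7 mice in normal air for all 4 genes, whereas Ugdh of alveolar fibroblasts lies lower at P21 than at P7.

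Earlier in life Has1 took a course that did not run in 1 direction. In adventitial fibroblasts it stood at 16.3 and 2.64 CPM at E18.5, at 126 and 60.4 CPM at P1 and at 0.690 and 2.50 CPM at P7, so that P1 lay above both neighbours in both mice. The log2 changes were 3.32 (adjusted p = 0.291, edgeR) and -5.82 (adjusted p = 0.539, edgeR), and neither passed. The P7 level lay below P1 without overlap in 4 of 6 classes. In myofibroblasts it was 3.99 and 5.03 CPM against 119 and 17.7 CPM, in airway smooth muscle 4.11 and 7.38 CPM against 111 and 27.8 CPM, and in alveolar fibroblasts 8.96 and 6.39 CPM against 59.1 and 10.6 CPM. Gfpt2 was also lower at P7 without overlap in 4 of 6 classes, among them myofibroblasts. Of 10887 genes tested in all 6 classes, 2.72% lay lower at P7 without overlap in at least 4. None of these passed: 0% of all genes passed between P1 and P7 in any of the 6 classes by edgeR, with 856 genes in adventitial, 370 in alveolar, 1072 in myofibroblast, 709 in airway smooth muscle, 463 in vascular smooth muscle and 475 in pericyte sums at an unadjusted p under 0.05. DESeq2 called 1 member in adventitial cells and 2 each in alveolar, myofibroblast and airway smooth muscle sums, where it called 2.84%, 1.40%, 6.52% and 3.43% of all genes.

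Between E18.5 and P1, Hyal1 was the member that passed, in alveolar fibroblasts. It had 0 reads in both E18.5 mice and 18.0 and 11.3 CPM at P1 (adjusted p = 0.0306, edgeR), at least 83.4-fold higher against a floor of 3 counts over the 16695672 reads of the E18.5 group. Has2 and Gfpt2 also had 0 reads in both E18.5 mice, and were at least 41.8- and 33.9-fold higher at P1. Neither passed (adjusted p = 0.102 and 0.0806, edgeR), so a lack of reads at E18.5 was not particular to Hyal1. The E18.5 sums held 14 and 24 cells with medians of 1042 and 1232 genes per cell, the summed level of 5 epithelial markers was 1031 CPM in the female and 25.9 CPM in the male, and the median log2 change of all genes was 1.35. Across all genes 6.16% passed, nearly all of them higher at P1. The part of these in the Hyal1 result was not tested, and it did not pass with only the 4 mice of the comparison, nor without any 1 of the P1, P7 (normal air or hyperoxia) or P21 mice. Exons of Hyal1 overlap those of Hyal3 and Naa80, so its reads are uncertain. No member passed in adventitial fibroblasts (0.170% of all genes) or pericytes (0.0420%).

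For hyperoxia, 5 classes could be set against P7 mice in normal air, and Cd44 was the member that stood higher in each, without overlap between the mice. In myofibroblasts it was at 1091 and 1276 CPM in hyperoxia and at 528 and 455 CPM in normal air, a log2 change of 1.27 ± 0.30 (SE, adjusted p = 0.530, edgeR). In alveolar fibroblasts it was at 466 and 528 CPM against 238 and 233 CPM, a log2 change of 1.08. In airway smooth muscle it was at 708 and 777 CPM against 356 and 545 CPM, in vascular smooth muscle at 422 and 522 CPM against 266 and 311 CPM, and in adventitial fibroblasts at 237 and 379 CPM against 160 and 197 CPM, with log2 changes of 0.76, 0.71 and 0.75. No class passed on its own. The 5 classes share the same 4 mice and are not independent. In single classes 16.6% to 26.5% of all genes stood higher in hyperoxia without overlap, and of 11634 genes tested in all 5 classes 188 (1.62%) did so in each.

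By edgeR 0% of all genes passed for hyperoxia in each of the 5 classes, with 1224 genes in adventitial, 420 in alveolar, 847 in myofibroblast, 418 in airway smooth muscle and 319 in vascular smooth muscle sums at an unadjusted p under 0.05. DESeq2 called 481, 240, 415, 151 and 253 genes in the same order, or 3.28%, 1.42%, 3.18%, 1.06% and 1.96%. Cd44 was called in myofibroblasts by DESeq2 and in myofibroblasts and alveolar fibroblasts by limma in 1 fit over all classes, which called 1.49% and 4.48% of all genes there. A difference of the Cd44 change between classes was not detected: it was 0.14 between myofibroblasts and alveolar fibroblasts and -0.30 between adventitial and alveolar fibroblasts, both with an adjusted p of 1 (edgeR). Neither of these interactions called a gene (0% in both).

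More myofibroblasts had a Cd44 read in hyperoxia, 100% and 100% of cells against 86.5% and 88.0%, and after thinning to 100000 reads the shares were 100% and 100% against 80.3% and 83.7%. The median myofibroblast stood at 1007 and 1141 CPM in hyperoxia and at 350 and 291 CPM in normal air. Nearly all cells of each hyperoxia mouse (498 of 509 in the female and 542 of 551 in the male) came from a run of its own. Hyperoxia cells had more genes per cell, with medians of 5111 and 6609 in myofibroblasts against 2864 and 2834 in normal air. Treatment and run therefore cannot be told apart. Immune cells are known to carry much Cd44. The summed level of 5 immune markers in myofibroblasts was 131 and 93.5 CPM in hyperoxia and 71.6 and 38.7 CPM in normal air, of which the pan-leukocyte marker Ptprc was at 0 and 0.0403 CPM and Cd52 at 0 and 0 in hyperoxia. The rest of the sum was mostly Lyz2, a lysozyme of macrophages, at 128 and 86.9 CPM in hyperoxia and 53.1 and 26.7 CPM in normal air. Cd68 was lower in hyperoxia (3.07 and 1.75 CPM against 18.4 and 11.9 CPM), and Csf1r stood at 0 and 4.80 CPM against 0.0241 and 0.0282 CPM. The part of the Lyz2 reads and their source in the Cd44 result was not tested.

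**Figure D3:**
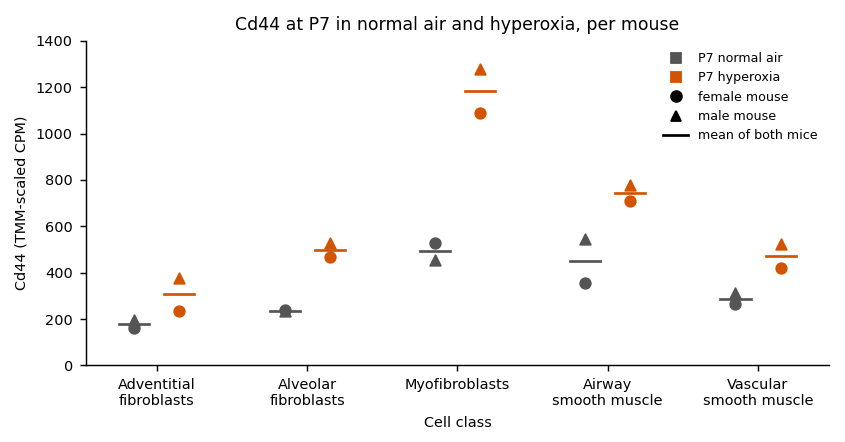
Cd44 at P7 in 5 classes, in CPM after TMM scaling, with 1 point per mouse (circle female, triangle male) in normal air (grey) and hyperoxia (orange) and a line at the mean of both. Both hyperoxia mice lie above both normal-air mice in each class, and the myofibroblasts are highest at 1091 and 1276 CPM.

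Among the synthesis genes, Has1, Gfpt2 and Ugdh stood higher in hyperoxia in adventitial fibroblasts and did not pass. Has1 was at 19.5 and 45.6 CPM against 0.690 and 2.50 CPM in normal air (log2 change 4.34 ± 0.95 SE, adjusted p = 0.395, edgeR), Gfpt2 at 70.5 and 82.7 CPM against 34.6 and 12.5 CPM (adjusted p = 0.543, edgeR) and Ugdh at 270 and 295 CPM against 161 and 167 CPM (adjusted p = 0.621, edgeR). Gfpt1 stood lower without overlap, at 32.0 and 43.6 CPM against 56.1 and 64.7 CPM (log2 change -0.67, adjusted p = 0.766, edgeR), and Has2 overlapped, at 5.23 and 2.20 CPM against 0.976 and 19.2 CPM. The cells with mesothelial markers held 32.5% and 45.5% of the Has1 reads of the female and the male hyperoxia mouse. Has1 stood at 164 and 281 CPM in them and at 15.4 and 29.2 CPM in the other early adventitial cells, whereas Gfpt2 was lower in them (17.8 and 23.8 CPM against 80.7 and 95.0 CPM) and Tnfaip6 had no reads. Has1 was read in only 3 of the 6 female and 3 of the 9 male cells of this kind. One of the female cells stood at 1065 CPM, so these summed levels rest on few cells. Without the cells with mesothelial markers the log2 change of Has1 was 4.08 (adjusted p = 0.686, edgeR) and that of Gfpt2 2.04 (adjusted p = 0.541, edgeR). Median genes per cell were again higher in hyperoxia, 4529 and 5910 against 3027 and 3018 in early adventitial cells.

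**Figure D4:**
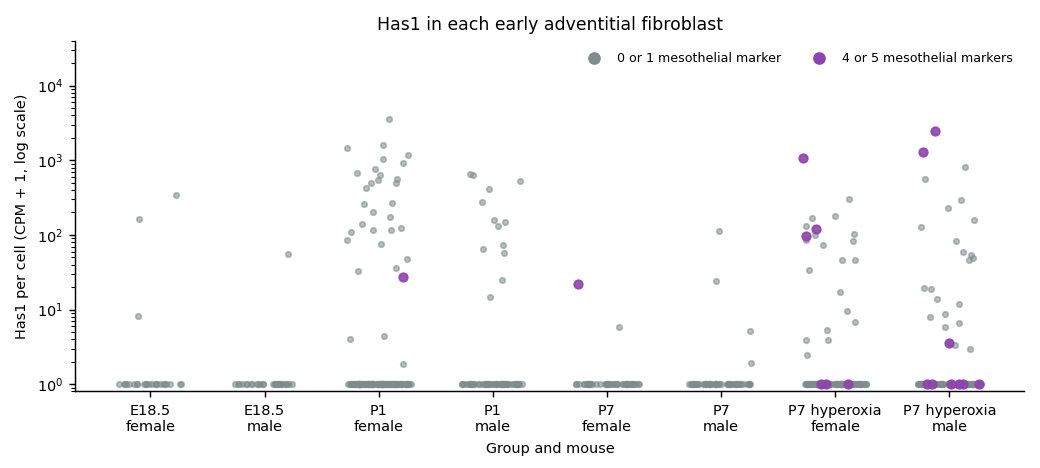
Has1 in each early adventitial fibroblast by group and mouse, as CPM + 1 on a log axis, so that cells without a read lie at the bottom line; cells with 4 or 5 mesothelial markers are purple, all others grey. In both hyperoxia mice grey and purple cells with Has1 reads lie above the bottom line, and the P7 normal-air mice have few cells above it.

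In alveolar fibroblasts Has1 and Ugdh lay the other way without overlap, Has1 at 0.160 and 1.21 CPM against 8.96 and 6.39 CPM and Ugdh at 293 and 277 CPM against 508 and 365 CPM, and the difference of the Has1 change between the classes did not pass (adjusted p = 1, edgeR). Of the 9 members 5 stood higher and 3 lower in hyperoxia without overlap in this class. The share of all genes lower in hyperoxia without overlap was not counted in any class, and 22.9% stood higher in alveolar fibroblasts. The 55 cells of the male mouse that the authors named male hyperoxic fibroblasts had 152 CPM of Ugdh and 474 CPM of Cd44, against 326 and 622 CPM in the early alveolar fibroblasts of that mouse.

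Of 41 further genes of the pathway, 37 were in the table, and their behaviour in the comparisons was read against the same test. Between P7 and P21 in airway smooth muscle 24 were tested, 2 rose and 1 fell, where 1.13% of all genes passed. Uap1, which makes UDP-N-acetylglucosamine, rose from 28.5 and 12.5 CPM to 205 and 206 CPM (log2 change 3.42 ± 0.57 SE, adjusted p = 0.0238, edgeR). Vcan, the hyaluronan-binding proteoglycan versican, fell from 286 and 533 CPM to 14.9 and 34.6 CPM (log2 change -4.07 ± 0.54 SE, adjusted p = 0.0120, edgeR). Itih4, of the inter-alpha-inhibitor family, rose from 0 reads in both mice to 112 and 121 CPM (adjusted p = 0.0397, edgeR). In adventitial fibroblasts 0 of 32 tested pathway genes passed between P7 and P21, with a median log2 change of 0.60 against 0.10 over all genes. The other 2 calls were Gnpda1 and Amdhd2, enzymes of amino sugar breakdown, between E18.5 and P1 in alveolar fibroblasts, again against 0 reads at E18.5. They were 2 of 29 pathway genes tested there, where 6.16% of all genes passed, so they do not set the pathway apart. By level per length the lysosomal Hexa (59.8 RPKM) led the breakdown genes, Ugp2 (29.7), Nagk (18.5) and Uap1 (18.0) the precursor genes and Vcan (11.3), Itih5 (8.07) and Itih4 (7.64) the binding genes.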

How the data were processed

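Reads of 5480 sorted lung mesenchymal cells of 10 mice were deposited by the authors as whole-number read counts per gene and cell, not normalized. Per the submitters' processing notes, STAR 2.5.2b, HTSeq 0.10 and the build GRCh38 were used. That is a human build name and the samples are mouse, so no coordinate was taken from the counting, and coordinates come from GENCODE M21 (GRCm38) and RefSeq (GRCm38.p6). The strand setting, the filters and the treatment of doublets are not given in the sources used here, and no doublet caller was run. Cells from 69 wells labelled with a CD31 and 2 with a CD45 sort were kept. Subtypes, ages, treatments, sexes and runs came from the labels, and 4108 cells fell into the 6 classes tested and 1372 into none.

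Counts were summed per mouse and class with at least 10 cells and tested with edgeR (4.0.16, under R 4.3.3), with TMM scaling, filterByExpr, terms for group and sex, the two-sided quasi-likelihood test and Benjamini-Hochberg adjustment over all genes, with all groups of a class in 1 fit. A fit had 6 to 10 libraries of 3123100 to 380620000 reads, which left 2 to 4 residual degrees of freedom. Interactions had the mouse as a block. The term for sex is also the replicate block, since the mice are numbered by sex alone. It does not pair animals, and p-values measure the spread between single mice. DESeq2 1.42.0, limma 3.58.1, RLE scaling, other filters, thinned cells and left-out mice were the alternatives. Reads are not independent molecules, so limits from counts cover counting error only. All 9 members were examined in every comparison and the text gives the values its results turn on, with pathway genes where they passed or led their role by level (up to 3 per role, not all of which are reported here) and the 5 genes most alike by Pearson correlation of log2(CPM + 1). The members and lists were chosen with earlier results of these data known. The mesothelial alternative was chosen after seeing the data.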

Additional observations from a re-analysis of the deposited data

How the results depend on the processing

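The 783 alternative log2 changes of 45 results (members with an unadjusted p under 0.05 in a comparison or interaction, and Cd44 in hyperoxia) all kept their direction. Outside these 45 direction can turn: Hyal1 in vascular smooth muscle (P7 to P21) was at 0.54 by edgeR and -2.56 by limma. Of the counts of members called, 318 of 371 stayed within 1.5 times of the value reported. Most of the reported counts were 0, and staying at 0 says little about the comparisons with a call. Several settings also called more of all genes, so their counts do not compare with the share reported for edgeR: DESeq2 called 1.06% to 26.5% of all genes (median 4.83% over 19 comparisons), limma 0.276% to 22.0% (median 1.49%) and the thinned cells 0% to 3.86% (median 0.126%). With DESeq2 in place of edgeR the count became 1 (adventitial, E18.5 to P1, from 0), 1 (adventitial, P1 to P7, from 0), 2 (adventitial, hyperoxia, from 0), 4 (alveolar, E18.5 to P1, from 1), 2 (alveolar, P1 to P7 and P7 to P21, from 0), 2 (myofibroblast, P1 to P7, from 0), 1 (myofibroblast, hyperoxia, from 0), 2 (airway smooth muscle, P1 to P7, from 0), 5 (airway smooth muscle, P7 to P21, from 1), 2 (vascular smooth muscle, P7 to P21, from 0) and 1 (vascular smooth muscle, hyperoxia, from 0). With limma in 1 fit it became 5 and 2 (alveolar, E18.5 to P1 and P1 to P7), 3 and 2 (alveolar, P7 to P21 and hyperoxia), 1 (myofibroblast, hyperoxia) and 4 (airway smooth muscle, P7 to P21). In adventitial cells (P7 to P21) the count stayed at 3, but Has1 missed (adjusted p = 0.0671, limma) and Ugdh passed (adjusted p = 0.00131, limma). With cells thinned to 100000 reads it became 1 (adventitial, P1 to P7 and hyperoxia), 2 (alveolar, P7 to P21) and 3 (airway smooth muscle, P7 to P21). Without the replicate block (the term for sex) it became 2 (alveolar, E18.5 to P1) and 3 (airway smooth muscle, P7 to P21), and 4 with Ugdh added in adventitial cells (P7 to P21, from 3). In airway smooth muscle (P7 to P21) RLE scaling gave 2 and no filter 3. In alveolar cells at least 20 cells per mouse gave 1 (P7 to P21) and only the 4 mice of the comparison 0 (E18.5 to P1). Leaving out the cells with mesothelial markers gave 1 in adventitial cells (P7 to P21). Leaving out 1 mouse at a time, the count ranged from 0 to 3 in adventitial cells and in airway smooth muscle (P7 to P21), from 0 to 6 in alveolar cells (E18.5 to P1), from 0 to 1 in myofibroblasts (P1 to P7) and from 0 to 1 for the difference between adventitial and alveolar change (P7 to P21). The cause of these shifts was not tested. RLE scaling moved the median log2 change of all genes by 0.10 in alveolar cells (P7 to P21), and from 1.35 to 1.14 between E18.5 and P1.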
